A study of Mus musculus with 6 samples.

Results

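The integrated stress response is the pathway by which a cell slows protein synthesis when it lacks heme or amino acids or holds unfolded protein. Its sensors are kinases that phosphorylate the alpha subunit of the initiation factor eIF2. General translation then falls, while the mRNAs of a few factors, ATF4 first among them, are translated better, and ATF4 switches on genes of amino acid supply and stress handling. The heme-regulated kinase HRI, encoded by Eif2ak1, is the sensor named for heme, which needs iron for its making. It is known best in red cell precursors, where it holds back globin synthesis when heme is short. Both the kinases and ATF4 are controlled to a large extent after transcription, by phosphorylation and translation, and mRNA counts do not measure either.

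Of the 24422 genes in the count tables, 10 of this response were taken by symbol: the kinases Eif2ak1 (HRI) and Eif2ak4 (GCN2, the amino acid sensor), the transcription factors Atf4, Atf5 and Ddit3 (CHOP), the pseudokinase Trib3, and Asns, Psat1, Phgdh and Chac1, which make or use amino acids and are known ATF4 targets. All 10 had enough reads to be tested.

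The tissue was whole kidney from wild type C57BL/6 mice at postnatal day 15, sequenced as bulk mRNA. The dams, 8 weeks old at the start, were given either an iron sufficient diet of 220 ppm iron (control) or an iron deficient diet of about 2 to 6 ppm (FeD) for some weeks before mating with C57BL/6 males, a time that the labels and the study's methods give differently. Each dam stayed on its diet through pregnancy and nursing, so the pups were exposed before birth as well as after. Each group had 3 kidneys, and neither the litter nor the sex of each pup was given in the labels, so the P values measure the spread between these samples, and litter and diet cannot be told apart.

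In FeD kidneys 4 members were higher, 2 were lower and 4 passed the test in neither direction, where 22.4% of all genes tested were higher and 23.3% lower. Eif2ak1 itself was at 0.995 times the control, and Atf4 mRNA was 1.22 times the control. Trib3 rose most, to 2.32 times, and Phgdh fell most, to 0.504 times, while Psat1, the next enzyme after Phgdh in the same pathway, rose to 1.70 times. Ddit3, Asns and Chac1, which a full ATF4 and CHOP response is known to induce, did not pass the test.

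ATF4 binds, with a C/EBP partner, to a composite element called CARE. Its letters, TGATGNAA, were searched on both strands of the 250 bases before each start in RefSeq's promoter table (GRCm38.p6), which held all 10 members. At least 1 match stood before the start of 2 of the 10, Asns and Chac1, and 3.91% of all 27025 genes in the table held one. The stretches below are those of these 2 members and of the 5 genes of the wider pathway that held the element and passed the test in FeD kidneys. Each is written 5′ to 3′ on the gene's strand, with the match in capitals (TTGCATCA and TTTCATCA are the element read on the other strand). Positions are on mm9, found by exact match of the RefSeq sequence.
Asns, chr6:7643214-7643243, minus strand: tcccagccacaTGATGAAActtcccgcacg
Chac1, chr2:119176774-119176803, plus strand: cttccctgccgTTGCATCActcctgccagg
Atf3, chr1:193007304-193007333, minus strand: ccttctcgcacTTGCATCAccaagtccgcg
Nupr1, chr7:133769076-133769105, minus strand: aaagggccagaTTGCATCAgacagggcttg
Herpud1, chr8:96910206-96910235, plus strand: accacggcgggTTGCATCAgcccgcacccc
Vldlr, chr19:27291299-27291328, plus strand: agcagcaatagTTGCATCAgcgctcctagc
Gars, chr6:54987954-54987983, plus strand: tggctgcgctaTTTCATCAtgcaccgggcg
The match in Asns lay 23 to 16 bases before the start, and that in Chac1 lay 193 to 186 bases before it. A match is a string of letters and not a bound site, and its absence from this window says nothing of sites elsewhere in a gene.

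Total counts ran from 13732173 to 20853293 per kidney, and 3 counts, taken as the floor, were worth 2.59 to 3.90 normalized counts. A normalized count is a kidney's count scaled to the mean library size after TMM normalization. Of 15145 genes tested, 22.4% were higher and 23.3% lower in FeD kidneys at an adjusted P under 0.05, which is 45.7% in all. At a change of at least 2-fold, 4.34% were higher and 5.69% were lower. In 58.1% of genes the 3 control and 3 FeD values did not overlap. The members' 4 higher and 2 lower, 1 of them 2-fold higher and 0 of them 2-fold lower, are to be read against these shares. Of the 10, 6 had groups that did not overlap, the same 6 that passed the test, and 6 of 10 is close to that background. The median log2 fold change of the members was 0.03, against -0.0018 over all genes tested. FeD 3 stood farthest from its group: its counts gave a chi-square per degree of freedom of 24.0 and 30.4 against the other FeD kidneys, where that of FeD 1 against FeD 2 was 11.5 and the control pairs gave 3.77 to 7.36.

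**Figure D1:**
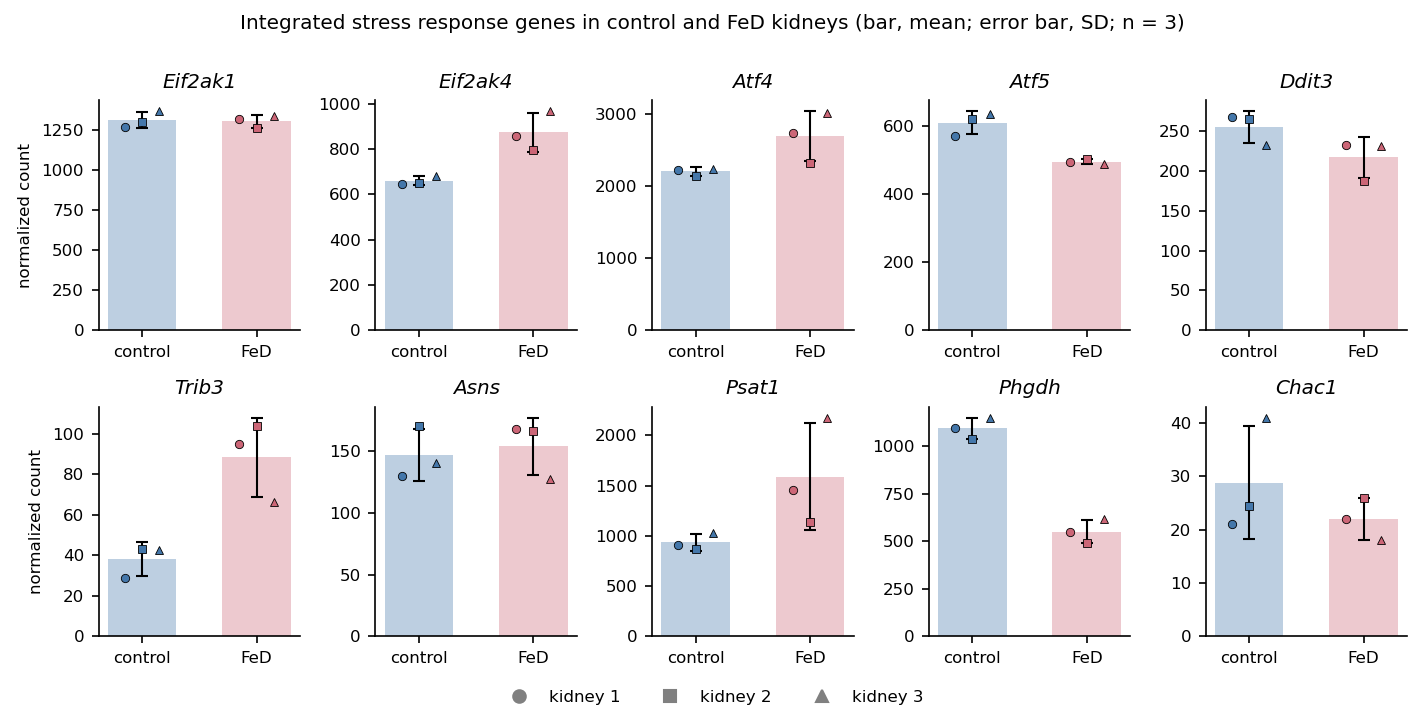
Normalized counts of the 10 members in each kidney, with a panel per gene on its own axis from 0 (bars, group mean; error bars, SD; points, the 3 kidneys of each group). Eif2ak1 has means of 1312 and 1305, Trib3 and Psat1 are higher in every FeD kidney than in any control, and Phgdh is lower in every FeD kidney.

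The kinases were examined first, since they open the pathway. Eif2ak1 (chr5:144578657-144665125, plus strand, mm9) had 1270, 1300 and 1367 normalized counts in the control kidneys. In the FeD kidneys it had 1317, 1261 and 1338. The FeD values lay almost wholly within the control range, with means of 1312 ± 49.4 and 1305 ± 39.9 (SD, n = 3 each). The log2 fold change was -0.01 (SE 0.06, edgeR adjusted P = 0.93), and its 95% interval ran from 0.905 to 1.09 in fold. A change in HRI mRNA beyond that interval was not seen, and the phosphorylation of the kinase was not measured. Of its exon bases, 11.6% lie opposite exons of Aimp2 and Ankrd61, whose reads cannot be told apart from its own where counting ignores strand. Aimp2 was at 401 ± 22.7 in control and 381 ± 40.8 in FeD kidneys (edgeR adjusted P = 0.60).

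Because HRI acts in red cell precursors, the erythroid markers in the same kidneys bear on its reading. Of 16 erythroid markers, 7 could be tested, 0 were higher and 2 were lower, Slc4a1 and Klf1. Over all genes tested these shares were 22.4% and 23.3%. Slc4a1, an anion exchanger listed here as a red cell marker, had a log2 fold change of -1.42 (edgeR adjusted P = 0.0051). Klf1, an erythroid transcription factor, had one of -0.81 (edgeR adjusted P = 0.013). Whether the reads of Slc4a1 came from red cells alone was not tested. Of the 16 markers, 15 had a count entry, 4 of them at 0 in every kidney. These 15, Slc4a1 included, summed to 2950 to 4316 normalized counts in control and 1280 to 2035 in FeD kidneys. All 10 globin genes in the tables were listed at 0 in every kidney. In bulk tissue, fewer cells of a type and less RNA per cell cannot be told apart, and the part of red cell precursors in the level of Eif2ak1 was not tested.

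Eif2ak4, the kinase that senses uncharged tRNA (chr2:118214353-118300970, plus strand, mm9), was higher. Its control values were 648, 649 and 683 normalized counts and its FeD values 858, 799 and 968. Every FeD kidney was above every control. The means were 660 ± 19.97 and 875 ± 85.8 (SD, n = 3), a log2 fold change of 0.41 (SE 0.09, edgeR adjusted P = 0.0070), and the call held whichever kidney was left out.

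The remaining kinases of eIF2 were fixed as comparators. Eif2ak3, which encodes PERK, the sensor of the endoplasmic reticulum, rose from 1025 ± 37.3 to 1249 ± 66.8 normalized counts (log2 difference, the same fold change, 0.29, edgeR adjusted P = 0.0098), a call lost without control 2 (adjusted P = 0.062). Eif2ak2, which encodes the double-stranded RNA sensor PKR, was at 538 ± 15.0 and 564 ± 5.15 (log2 fold change 0.07, edgeR adjusted P = 0.46). So 2 of the 4 kinases passed the test, both upward, or 1 of the 4 without control 2. Over all genes tested, 22.4% were higher and 23.3% lower. On a per-length scale (RPKM, reads scaled by exon length and library size), control levels were 12.9 ± 0.487 for Eif2ak1, 10.6 ± 0.385 for Eif2ak3, 5.89 ± 0.164 for Eif2ak2 and 4.96 ± 0.150 for Eif2ak4. In FeD kidneys Eif2ak1 (12.9 ± 0.394) and Eif2ak3 (12.9 ± 0.689) did not differ beyond their spread, nor did Eif2ak4 (6.57 ± 0.644) and Eif2ak2 (6.18 ± 0.0564). Eif2ak1 was therefore the most abundant of the kinase mRNAs per length in control kidneys, and shared that place with Eif2ak3 in FeD kidneys.

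Genes that feed or restrain these kinases were examined beside them. Of 17 genes of eIF2, its exchange factor eIF2B and their regulators, 5 were higher and 4 lower, against 22.4% and 23.3% of all genes, and their median log2 fold change was 0.05. Without control 3 the higher count was 3. Impact, whose product restrains GCN2, rose from 648 ± 26.7 to 1073 ± 167 normalized counts (log2 difference 0.72, edgeR adjusted P = 0.0015). Gcn1l1, whose product GCN1 is needed to activate GCN2, fell from 3140 ± 157 to 2512 ± 211 (log2 fold change -0.32, edgeR adjusted P = 0.0096). The rise of Eif2ak4 was thus accompanied by more mRNA of its inhibitor and less of its activator. Eif2s2, the beta subunit of eIF2, rose by a log2 fold change of 0.50 (edgeR adjusted P = 0.00030). Oma1 encodes the mitochondrial protease that cleaves DELE1, the protein that carries mitochondrial stress to HRI, and it fell from 445 ± 37.6 to 320 ± 23.8 (log2 fold change -0.47, edgeR adjusted P = 0.0057). Dele1 itself, listed as 0610009O20Rik, fell from 1303 ± 25.5 to 1033 ± 133 (log2 fold change -0.34, edgeR adjusted P = 0.021). Ppp1r15a, or GADD34, the phosphatase subunit that closes the response and is itself induced by it, rose from 409 ± 14.6 to 574 ± 88.1 (log2 fold change 0.49, edgeR adjusted P = 0.011).

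Among the transcription factors, Atf4 (chr15:80085614-80087970, plus strand, mm9) had control values of 2226, 2136 and 2240 normalized counts. Its FeD values were 2737, 2316 and 3007. The groups did not overlap, but FeD 2 lay only just above the highest control. The means were 2201 ± 56.4 and 2686 ± 348 (SD, n = 3), a log2 fold change of 0.29 (SE 0.09, edgeR adjusted P = 0.033). The call did not hold without control 1 (adjusted P = 0.086), control 2 (0.12), control 3 (0.085) or FeD 1 (0.075), and held without FeD 2 or FeD 3. At 71.5 ± 1.83 RPKM in control kidneys, Atf4 was the most abundant member per length.

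Atf5, a relative of ATF4 whose mRNA is also translated better under stress and which is tied to the mitochondrial stress response (chr7:52067627-52072028, minus strand, mm9), moved the other way. It had 573, 623 and 637 normalized counts in control and 495, 504 and 490 in FeD kidneys. All FeD values lay close together below the control range. The means were 611 ± 33.5 and 496 ± 6.85 (SD, n = 3), a log2 fold change of -0.30 (SE 0.08, edgeR adjusted P = 0.014), and the call was lost without control 2 (adjusted P = 0.055) or control 3 (0.057). Of its exon bases, 4.12% lie opposite exons of Nup62 and Il4i1.

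Ddit3 encodes CHOP, the factor that follows ATF4 when stress is prolonged (chr10:126727830-126733344, plus strand, mm9). It had 267, 266 and 232 normalized counts in control and 233, 187 and 231 in FeD kidneys. FeD 1 reached the lowest control, and FeD 2 was the lowest of all 6. The log2 fold change was -0.23 (SE 0.13, edgeR adjusted P = 0.17), with a 95% interval of 0.700 to 1.04 in fold, so a rise of CHOP mRNA beyond that bound was not seen. Mars exons cover 3.97% of its exon bases on the other strand.

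Trib3 encodes a pseudokinase that ATF4 and CHOP induce and that in turn restrains ATF4 (chr2:152163158-152169768, minus strand, mm9). It had 28.8, 43.1 and 42.7 normalized counts in control and 94.98, 104 and 66.5 in FeD kidneys. The lowest FeD value stood well above the highest control, and FeD 3 was the lowest of the FeD group. The means were 38.2 ± 8.18 and 88.4 ± 19.5 (SD, n = 3), a log2 fold change of 1.20 (SE 0.26, edgeR adjusted P = 0.0058, 95% interval 1.53 to 3.45 in fold). Trib3 was the only member at least 2-fold higher, and it stayed past the test whichever kidney was left out. It was a low mRNA all the same, at 1.01 ± 0.216 RPKM in control and 2.33 ± 0.515 in FeD kidneys.

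The partners of these factors gave the same mixture of directions. With Atf4, Atf5, Ddit3 and Trib3 included, 6 of 9 ISR factors were higher and 2 lower, against 22.4% and 23.3% of all genes. The median log2 fold change of the 9 was 0.25. Without control 1 or control 2 only 3 were higher, and without control 2 or control 3 only 1 was lower. Of the 5 that were not members, 4 were higher and 1 lower with all kidneys. Atf3, an early stress factor downstream of ATF4, had 36.4, 39.8 and 28.5 normalized counts in control and 81.0, 94.8 and 89.8 in FeD kidneys. It rose by a log2 fold change of 1.34 (SE 0.20, edgeR adjusted P = 0.0013), close in size to Trib3. Nupr1, a stress-induced chromatin protein and a known ATF4 target, went strongly down. It had 1161, 1238 and 1279 normalized counts in control and 516, 421 and 514 in FeD kidneys, a log2 fold change of -1.34 (SE 0.10, edgeR adjusted P = 5.2e-05). Cebpb, a C/EBP factor that pairs with ATF4, rose by 0.71 (edgeR adjusted P = 0.0056).

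Enzymes of serine synthesis were measured next, since their genes are classical ATF4 targets. Phgdh makes the first committed step from the glycolytic intermediate 3-phosphoglycerate (chr3:98117093-98143913, minus strand, mm9). It had 1094, 1035 and 1148 normalized counts in control and 548, 489 and 615 in FeD kidneys. Each FeD kidney held far less than any control. The means were 1092 ± 56.1 and 551 ± 62.6 (SD, n = 3), a log2 fold change of -0.99 (SE 0.10, edgeR adjusted P = 0.00018, 95% interval 0.432 to 0.590 in fold). It had the smallest adjusted P of the members, and the call held without any 1 kidney.

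Psat1, the aminotransferase of the second step (chr19:15979168-16021827, minus strand, mm9), had 909, 866 and 1033 normalized counts in control kidneys. In FeD kidneys it had 1453, 1136 and 2176. All FeD values were above the controls, but they ranged widely, from FeD 2 just above control 3 to FeD 3 far above the rest. The means were 936 ± 86.6 and 1588 ± 533 (SD, n = 3), a log2 fold change of 0.77 (SE 0.21, edgeR adjusted P = 0.017). Without FeD 3 the log2 fold change was 0.48 (adjusted P = 0.010), and the call was lost without control 1 (adjusted P = 0.060) or control 2 (0.070). In control kidneys Phgdh stood above Psat1 on a per-length scale (24.6 ± 1.26 against 12.3 ± 1.14 RPKM), and in FeD kidneys this order was turned around (12.4 ± 1.41 against 20.9 ± 7.02 RPKM), with FeD 2 lowest in both genes and FeD 3 highest.

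The third enzyme, Psph, was at 303 ± 7.37 and 294 ± 22.2 normalized counts (log2 difference -0.04, edgeR adjusted P = 0.76). The enzymes that turn serine into glycine and one-carbon units were also divided. Shmt2, the mitochondrial serine hydroxymethyltransferase, fell from 2807 ± 247 to 1541 ± 163 (log2 fold change -0.86, edgeR adjusted P = 0.00028). Mthfd1l, the mitochondrial enzyme that makes formate, rose from 98.6 ± 17.2 to 364 ± 30.2 (log2 fold change 1.89, edgeR adjusted P = 6.4e-05). Mthfd2, a mitochondrial folate enzyme and a known ATF4 target, was at 160 ± 14.0 and 172 ± 37.9 (log2 fold change 0.11, edgeR adjusted P = 0.61).

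Asns, asparagine synthetase, is a gene in which the amino acid response has been mapped in detail (chr6:7625169-7643254, minus strand, mm9). It had 129, 170 and 141 normalized counts in control and 168, 166 and 127 in FeD kidneys. The groups overlapped almost fully, and the lowest value of all was FeD 3. The log2 fold change was 0.06 (SE 0.17, edgeR adjusted P = 0.78), with a 95% interval of 0.801 to 1.36 in fold. Its promoter is 1 of the 2 among members that held the CARE letters printed above.

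In the whole list of 17 genes of serine, glycine, proline and asparagine synthesis, 3 were higher and 7 lower. Over all genes tested these shares were 22.4% and 23.3%, and the list's median log2 fold change was -0.37. Besides Psat1 and Mthfd1l the third higher gene was Bcat1, the cytosolic branched-chain aminotransferase, which rose from 266 ± 61.9 to 1085 ± 341 normalized counts (log2 difference 2.03, edgeR adjusted P = 0.00045). Psat1, Bcat1 and the transporters Slc38a2, Slc1a4 and Slc6a9 kept 1 order among FeD kidneys, with FeD 2 lowest and FeD 3 highest. Phgdh, which fell, had the same order (548, 489 and 615 normalized counts in FeD 1, 2 and 3). So did the total counts of these kidneys, at 17833878, 13732173 and 20853293. The summed level of 8 thick ascending limb and distal markers had that order too, at 114246, 99919 and 151037 normalized counts in FeD 1, 2 and 3. So did that of 7 collecting duct markers, at 47740, 32727 and 52233. Podocyte sums (15527, 11688 and 16127) kept it as well, as did sums of erythroid markers and of the S3 segment of the proximal tubule. The sums of proximal tubule, endothelium and stroma, macrophage and myeloid, and dividing cell markers did not. Of the distal markers 0 were higher and 3 lower, and of the collecting duct markers 4 were higher and 1 lower. These and the marker counts that follow are to be read against 22.4% and 23.3% of all genes. The summed level of 12 proximal tubule markers was 325239 to 349629 in control and 232657 to 258197 in FeD kidneys, with 0 higher and 9 lower. Markers of dividing cells summed to 3814 to 4052 in control and 1910 to 2097 in FeD kidneys, with 0 of 9 higher and 8 lower. The part of these cell types, and of sequencing depth, in Psat1, Phgdh and the one-carbon enzymes was not tested.

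**Figure D2:**
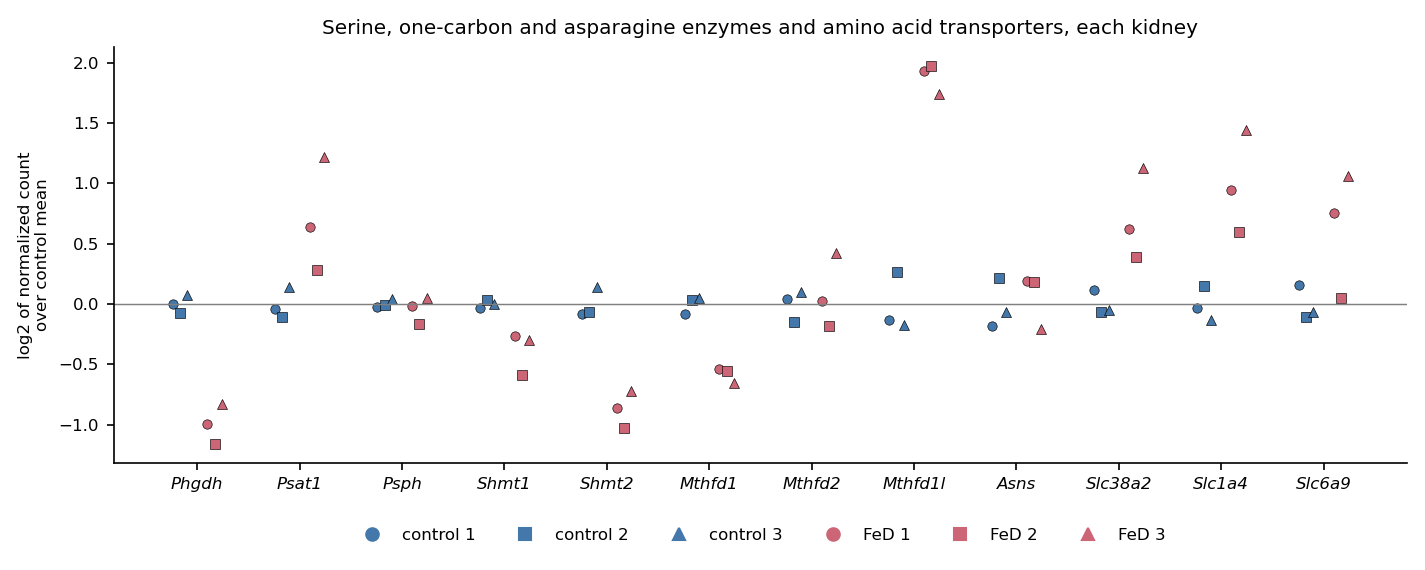
Each kidney's normalized count over the control mean, on a log2 scale, for enzymes of serine, one-carbon and asparagine metabolism and 3 amino acid transporters (blue, control; red, FeD; 0 is the control mean). Phgdh, Shmt2 and Mthfd1 lie below 0 and Psat1, Mthfd1l, Slc38a2 and Slc1a4 above it in all 3 FeD kidneys, while Psph, Mthfd2 and Asns have FeD values on both sides.

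Of 10 amino acid transporters that ATF4 is known to induce, 5 were higher and 1 lower, against 22.4% and 23.3% of all genes. The median log2 fold change of the transporters was 0.39. Only 3 were higher without control 1, without control 2 or without FeD 1, and 2 were lower without control 3. The largest change was that of Slc43a1, a carrier of branched-chain amino acids, from 80.5 ± 16.4 to 353 ± 32.5 normalized counts (log2 difference 2.13, edgeR adjusted P = 6.3e-05). Slc1a4, a carrier of alanine and serine, rose from 224 ± 22.0 to 458 ± 137 (log2 fold change 1.04, edgeR adjusted P = 0.0039). Slc7a3, a cationic amino acid carrier, rose from 14.8 ± 3.38 to 36.1 ± 10.5 (log2 fold change 1.26, edgeR adjusted P = 0.015), a call lost without control 1 (adjusted P = 0.058), control 2 (0.061) or FeD 1 (0.052). The glutamine carrier Slc1a5 fell (log2 fold change -0.45, edgeR adjusted P = 0.00076). Slc7a11, the cystine carrier, had a log2 fold change of -1.10 (edgeR adjusted P = 0.10). It had 49.8, 24.3 and 12.5 normalized counts in control (28.9 ± 19.1) and 13.0, 14.3 and 12.9 in FeD kidneys. Control 1 stood far above the rest. With 1 kidney left out its change ran from -1.47 (without control 3, edgeR adjusted P = 0.029) to -0.44, with an adjusted P of up to 0.43.

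Chac1, a glutathione-degrading enzyme that ATF4 and CHOP induce (chr2:119176965-119180117, plus strand, mm9), was near the lower end of what these libraries resolve. It had 21.1, 24.3 and 40.9 normalized counts in control and 22.0, 26.0 and 18.1 in FeD kidneys. Control 3 stood apart on the high side, and the other 5 kidneys overlapped. The log2 fold change was -0.41 (SE 0.33, edgeR adjusted P = 0.35), it was -0.05 without control 3, and the 95% interval of 0.446 to 1.28 in fold is wide at these counts.

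The stress effectors of ATF4 or CHOP, Chac1 among them, made a list of 16 genes. Of these 15 could be tested, 9 were higher and 0 lower, against 22.4% and 23.3% of all genes, and the median log2 fold change was 0.44. The list was made from known targets, and which factor raised its genes in these kidneys was not tested. Ddit4, or REDD1, an inhibitor of mTORC1 that hypoxia and glucocorticoids are also known to induce, had 724, 695 and 811 normalized counts in control and 3333, 3250 and 2687 in FeD kidneys (log2 fold change 2.05, SE 0.10, edgeR adjusted P = 1e-05). Gdf15, a stress hormone, had 89.1, 73.0 and 127 in control and 417, 157 and 274 in FeD kidneys (log2 fold change 1.55, SE 0.35, edgeR adjusted P = 0.0074). Herpud1, which acts in the clearing of proteins from the endoplasmic reticulum, rose by 0.69 (edgeR adjusted P = 0.0014). Stc2 had a log2 fold change of -0.04 (edgeR adjusted P = 0.85), and Fgf21 was at or under the floor of 3 counts. Trib3 and the effectors Ddit4, Sesn2, Herpud1, Map1lc3b and Sqstm1 had their lowest FeD value in FeD 3. Psat1, Atf4 and Eif2ak4 were highest in that kidney. Vldlr, Ero1l, Gdf15 and Pmaip1, the other effectors that rose, were lowest in FeD 2. So neither the members nor the effectors that rose shared 1 order among the FeD kidneys.

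Markers of other cells moved in the same kidneys. Their calls are to be read against the 22.4% higher and 23.3% lower of all genes tested. Of 7 macrophage and myeloid markers 3 were higher, Ctss (log2 fold change 1.53), Itgam (1.37) and Cd68 (1.12), and 1 was lower, while their summed level was 2195 to 2352 normalized counts in control and 2091 to 2488 in FeD kidneys. Of 8 markers of endothelium and stroma 1 was higher and 5 were lower, Emcn (-1.04) and Col3a1 (-1.05) by 2-fold, and the sums were 39236 to 41232 in control and 24117 to 29913 in FeD kidneys. Of 6 podocyte markers 2 were higher and 0 lower, with sums of 13994 to 15125 and 11688 to 16127. Of 6 markers of the S3 segment of the proximal tubule 1 was higher and 4 were lower, with Slc22a7, Slc7a13 and Slc22a13 lower by 2-fold and sums of 9976 to 11277 and 7693 to 10401. Markers at least 2-fold lower were also Slc34a1, Slc5a2, Slc13a3, Slc22a6 and Slc22a8 of the proximal tubule, Slc12a3 and Pvalb of the distal nephron, and Mki67, Top2a, Ccnb1, Ccnb2, Cdk1, Bub1 and Aurkb of dividing cells, and those 2-fold higher were Aqp2 and Aqp3 of the collecting duct. The part of these cells in the change of Trib3, the stress effectors and the other members was not tested.

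Of 24 cytosolic aminoacyl-tRNA synthetases and partners, which load amino acids onto tRNA, 5 were higher and 4 lower, shares no larger than the 22.4% and 23.3% of all genes. The median log2 fold change was 0.05. Without control 1 or control 2 only 3 were higher, and without control 2 and without control 3 the lower counts were 2 and 1. Aimp1, a scaffold of the synthetase complex, rose by 0.64 (edgeR adjusted P = 0.00042) and Qars by 0.37 (edgeR adjusted P = 0.0023). Yars fell, with a log2 fold change of -0.49 (edgeR adjusted P = 0.0076) and so did Wars, with -0.34 (edgeR adjusted P = 0.012), the latter lost without control 2 (adjusted P = 0.053) or control 3 (0.058).

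Neighbouring stress pathways, which share genes with this one, were set beside it. Of 24 genes of the ATF6 and XBP1 arms of endoplasmic reticulum stress, 3 were higher and 10 lower. Over all genes tested these shares were 22.4% and 23.3%, and the list's median log2 fold change was -0.14. The lower count was 5 without control 1 or control 3 and 6 without FeD 2. Calr, a calcium-binding chaperone, fell from 13866 ± 462 to 9136 ± 341 normalized counts (log2 difference -0.60, edgeR adjusted P = 0.00039), and Dnajb9, a co-chaperone, rose from 805 ± 55.2 to 1352 ± 193 (log2 fold change 0.75, edgeR adjusted P = 0.0011). Sel1l rose (log2 fold change 0.42, edgeR adjusted P = 0.0020) and Pdia6 fell (-0.33, edgeR adjusted P = 0.0042). Of 14 mitochondrial stress chaperones and proteases, 0 were higher and 10 lower, against the same shares of all genes. The median log2 fold change of these 14 was -0.42. Clpx became the 1 higher gene without FeD 3, and Yme1l1 had a log2 fold change of 0.08 (edgeR adjusted P = 0.33). Hspe1, the co-chaperonin of HSP60, fell from 2240 ± 152 to 1400 ± 164 (log2 fold change -0.68, edgeR adjusted P = 0.00078) and Trap1, a mitochondrial HSP90, from 3246 ± 67.5 to 2185 ± 120 (log2 fold change -0.57, edgeR adjusted P = 0.00025). Timm17a, a subunit of the mitochondrial import channel, changed by -0.52 (edgeR adjusted P = 0.00078). Hspe1, Trap1 and Timm17a, like Atf5, were lower in FeD kidneys, and a link between them was not tested. Over the 9 lists, 123 different genes other than the members were tested, of which 34 were higher and 36 lower, 8 and 1 of them 2-fold. The shares of all genes tested were 22.4% and 23.3%, and 4.34% and 5.69% at 2-fold. Their median log2 fold change was 0.01.

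**Figure D3:**
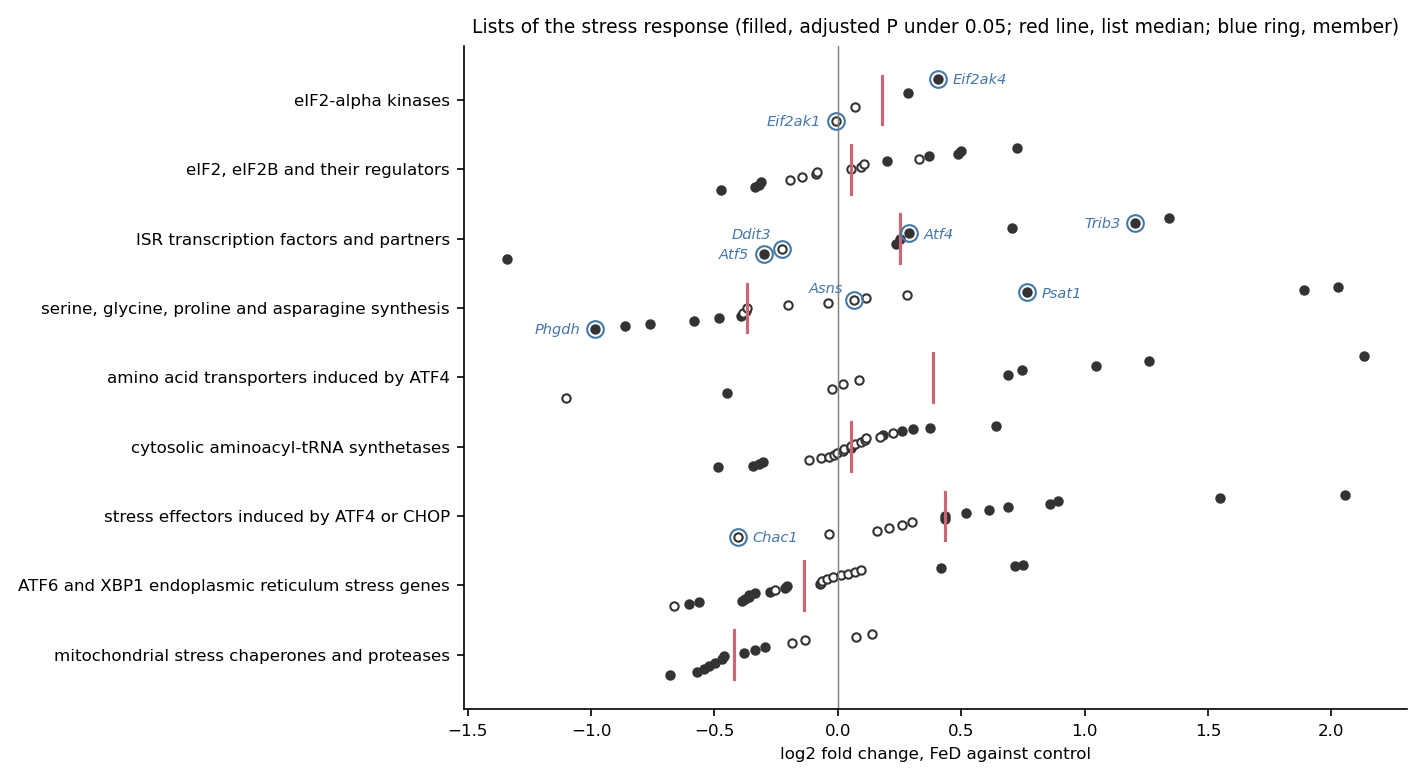
Log2 fold change of FeD against control kidneys for every tested gene of the 9 lists (filled points, adjusted P under 0.05; open points, not; red lines, list medians; blue rings, the 10 members). The stress effectors have 9 filled points, all above 0, the mitochondrial chaperones have 10, all below 0, and the remaining lists have medians between -0.37 and 0.39.

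Genes with the CARE letters and genes without them both included higher calls, lower calls and genes that passed in neither direction. Of 13 pathway genes that held the element, 12 were tested, and 4 were higher (Atf3, Gars, Vldlr and Herpud1), 1 was lower (Nupr1) and 7 passed in neither direction, Asns and Chac1 among the last. Of 93 that held none, 29 were higher, 29 lower and 35 neither. Over all genes tested, 22.4% were higher and 23.3% lower. The medians of the log2 fold change were 0.06 with the element and -0.01 without. The 6 members that passed the test, Eif2ak4, Atf4, Trib3, Psat1, Atf5 and Phgdh, all lacked these letters in the window. The ERSE motif of ATF6 stood before 9 of 20 genes of the ATF6 and XBP1 list, before 0 of the 10 members, and before 0.13% of the 27025 genes in the table.

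Across the 6 kidneys, the genes whose profile lay nearest to that of Eif2ak1, among 12932 whose mean was 50 normalized counts or more, were Rbm45, Arf1 and Nelfcd, at Euclidean distances of 0.031, 0.040 and 0.042 on the log2 scale after each gene was centred on its mean. For Atf4 they were Ccnl2, Krtcap3 and Pnisr, at 0.076, 0.081 and 0.083. The neighbours of Eif2ak1 had log2 fold changes between the diets of -0.02, -0.00047 and -0.03. Since they were picked over the same 6 kidneys, values near its own follow from the choice.

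**Figure D4:**
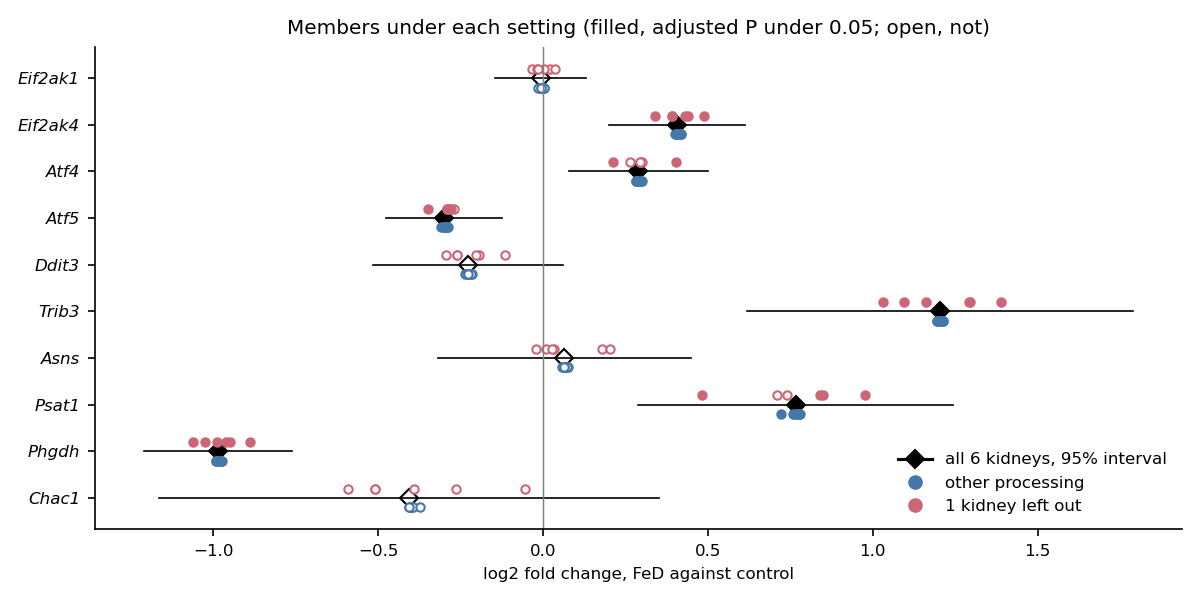
Log2 fold change of each member with all 6 kidneys (diamonds with 95% intervals), under other processing (blue points) and with 1 kidney left out (red points), filled where the adjusted P was under 0.05 (the test against a 2-fold change is not drawn). Eif2ak4, Trib3 and Phgdh are filled at every point, Atf4, Atf5 and Psat1 have open red points, and Eif2ak1, Ddit3, Asns and Chac1 are open throughout.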

How the data were processed

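Kidney RNA was read on an Illumina platform from poly-A libraries, and per the labels and the study's methods the authors trimmed reads with Trimmomatic, aligned them to mm9 with TopHat2 2.0.11 and counted them per gene with HTSeq. What they deposited is the table of raw counts, with a column per kidney. The gene models, the counting mode and the strand setting are not given in the sources used here. Genes were tested in R 4.3.3 with edgeR 4.0.16 (filterByExpr, TMM, quasi-likelihood test on 3 control and 3 FeD kidneys, Benjamini-Hochberg over all genes tested). The study gave an adjusted P under 0.05 with a 2-fold change as its threshold for kidneys with the transferrin receptor TfR1 deleted. That threshold was taken over here for FeD kidneys. An exact permutation test of 3 against 3 kidneys cannot go below 0.10. RPKM used exon lengths of the NCBIM37 annotation. No window of 100 bases of the members' transcripts recurred elsewhere in the genome (blastn 2.17.0). The members and lists were chosen with earlier results of these data known. By rule, the text names all members, the list genes changed 2-fold, and in each pathway list the 2 with the smallest adjusted P among positive and among negative fold changes. Marker lists are given by counts, sums and genes changed 2-fold, without the 2 most abundant genes that the rule adds. 0610009O20Rik, Ppp1r15a, Psph, Mthfd1, Mthfd2, Sesn2, Map1lc3b, Sqstm1, Ero1l, Pmaip1, Slc38a2, Slc6a9, Fgf21, Aimp2, Vldlr, Gars, Klf1 and Hspe1 fell outside the rule and were chosen with their values known. Alternatives were DESeq2 1.42.0, other scalings and filters, a replicate block, a test against a 2-fold change and each kidney left out.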

Additional observations from a re-analysis of the deposited data

How the results depend on the processing

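Eif2ak4, Trib3 and Phgdh kept their direction and their adjusted P under 0.05 in all 13 alternatives other than the test against a 2-fold change, Atf5 and Psat1 in 11 and Atf4 in 9, and Eif2ak1, Ddit3, Asns and Chac1 passed in 0. The lost calls all came from leaving out a kidney, where fewer samples enter the fit. Against a 2-fold change (edgeR's glmTreat), the same log2 fold changes of Eif2ak4 (0.41), Atf4 (0.29), Atf5 (-0.30), Trib3 (1.20), Psat1 (0.77) and Phgdh (-0.99) had an adjusted P of 1. Eif2ak1 changed sign with DESeq2's size factors in edgeR (0.0015), with at least 10 counts in every kidney (0.0041) and with DESeq2 (0.0017), all near 0.

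With 1 kidney left out, log2 fold changes ran from -0.0338 to 0.0375 for Eif2ak1, 0.21 to 0.40 for Atf4, -0.35 to -0.27 for Atf5, -0.0212 to 0.2018 for Asns and 0.48 to 0.98 for Psat1. Members higher were 2 to 4 and members lower 1 to 2. List genes higher were 1 to 2 of the kinases, 3 to 6 of eIF2 and its regulators, 3 to 6 of the factors, 3 to 5 of the transporters, 3 to 6 of the synthetases and 0 to 1 of the mitochondrial chaperones. List genes lower were 1 to 2 of the factors, 1 to 2 of the transporters, 1 to 5 of the synthetases and 5 to 10 of the ATF6 and XBP1 genes. Among the genes of the lists and markers named by the rule, the only ones so recomputed, those whose sign turned were Stc2 (-0.1076 to 0.0795), Podxl (-0.1545 to 0.1288), Synpo (-0.1919 to 0.0339), Kap (-0.0580 to 0.1156), Atp11a (-0.0972 to 0.1828) and Slc12a1 (-0.1130 to 0.3182), none past the test.

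The replicate numbers of the 2 groups did not pair the kidneys (correlations of same-numbered deviations -0.31, 0.00046 and -0.17). With a replicate block, the genes higher in FeD at adjusted P under 0.05 numbered 3100 and the genes lower in FeD at adjusted P under 0.05 numbered 3344, 4 members were higher and 2 lower, and no member's call changed. The table held 0 mitochondrially encoded genes, so leaving these out removed erythroid genes alone, and 3 results had no value under an alternative, Slc4a1 and Alas2 without erythroid genes and Pvalb under the filter on 10 counts. Chac1, with raw counts of 20 to 46, is the member whose depth limits its value most.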
